A study of Homo sapiens with 14 samples.

Results

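The transcripts of 8 human genes for abundant nuclear RNA-binding proteins were followed through lists of RNA sites that read as guanosine in place of adenosine. The genes were HNRNPU, HNRNPA1, HNRNPA2B1, HNRNPC, HNRNPK and PTBP1, which encode heterogeneous nuclear ribonucleoproteins (hnRNPs), and NCL and NPM1, which encode nucleolin and nucleophosmin. Members were all listed sites whose hg19 position fell inside the span of 1 of these 8 genes, and 76 of the 26172 distinct sites of the series did so. The lists, 1 for each library, describe poly(A)-selected RNA of HEK293T, an established line of human embryonic kidney origin. All libraries had an RNA base editor, a protein meant to turn adenosine into inosine, which sequencing reads as guanosine. The 14 libraries formed 7 groups of 2: DECOR with the MALAT1 guide, dCas13d-ADAR with the EZH2 or the NT guide, REPAIR.t1 with the EZH2_A22 or the NT guide, and REPAIRv2 with the EZH2_A22 or the NT guide (sample titles write Repair.t1 and Repair.v2). REPAIRv2 is a fusion of a Cas13 that no longer cuts RNA with an ADAR deaminase, and the labels spell out neither the makeup of the other editors nor the abbreviations NT and A22. No library without an editor was analysed here, so a listed site need not be the work of the editor. DECOR libraries were read for 62 and 160 cycles and all others for 25 and 97, and for DECOR the effects of the editor, of the guide and of longer reads cannot be told apart.

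The hnRNPs coat new transcripts in the nucleus and steer splicing, packaging and export of messenger RNA. Nucleolin and nucleophosmin reside mainly in the nucleolus, where ribosomal RNA is made and ribosomes are assembled. All are expressed strongly in dividing cells, but expression was not measured here.

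Each listed site has a genome position and an A-to-G rate, a fraction from 0 to 1 that is called its level here. Read counts, coverage and strand are not in the lists, so depth is unknown and levels carry no counting error. Absence from a list can mean no editing, a level under the authors' threshold or too few reads. No annotation or sequence of hg19 was used, so exons, introns and untranslated regions were not assigned. Distances below run from the start of the hg19 span in the direction of transcription. In RefSeq's GRCh38 table, RMI1, HNRNPK-AS1 and MIR7-1 overlap HNRNPK, SNORA75, SNORD20 and SNORD82 lie within NCL, MIR4745 overlaps PTBP1, and SNORA100 and LOC124904588 overlap HNRNPU. Without strand, a site in such a stretch could belong to either gene. HNRNPA1 and NPM1 have processed pseudogenes of near-identical sequence, which can take or lend aligned reads, so site numbers in these genes are less certain. The other genes were not checked for such copies, so the same limit may hold for them. Whether the 2 libraries of a group stem from separate cultures is not stated, and the p-values therefore reflect a spread that may be technical.

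DECOR libraries listed the most sites in the 8 genes. The libraries of DECOR held 31 and 23 such sites. The libraries of dCas13d-ADAR held 11 and 10 with the EZH2 guide and 8 and 12 with the NT guide. The REPAIR.t1 libraries held 15 and 10 with the EZH2_A22 guide and 13 and 15 with the NT guide. REPAIRv2 had 1 site in 1 EZH2_A22 library and 0 in the other 3 libraries. DECOR thus lay above every other library, while dCas13d-ADAR and REPAIR.t1 overlapped. The mean was 27.0 ± 5.66 for DECOR (SD, n = 2), 10.3 ± 1.71 for dCas13d-ADAR (n = 4), 13.3 ± 2.36 for REPAIR.t1 (n = 4) and 0.25 ± 0.5 for REPAIRv2 (n = 4). Whole lists ran in another order, at 5516 and 5855 sites for DECOR, 5730 to 5834 for dCas13d-ADAR, 4356 to 4784 for REPAIR.t1 and 46 to 101 for REPAIRv2. The 8 genes therefore took 0.562% and 0.393% of the DECOR lists, 0.140% to 0.207% of the dCas13d-ADAR lists and 0.209% to 0.344% of the REPAIR.t1 lists. In REPAIRv2 the single site was 1.15% of the 87 sites of its list, and the share was 0 in the other 3 lists. These sums over the chosen genes are a description and were not tested.

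**Figure D1:**
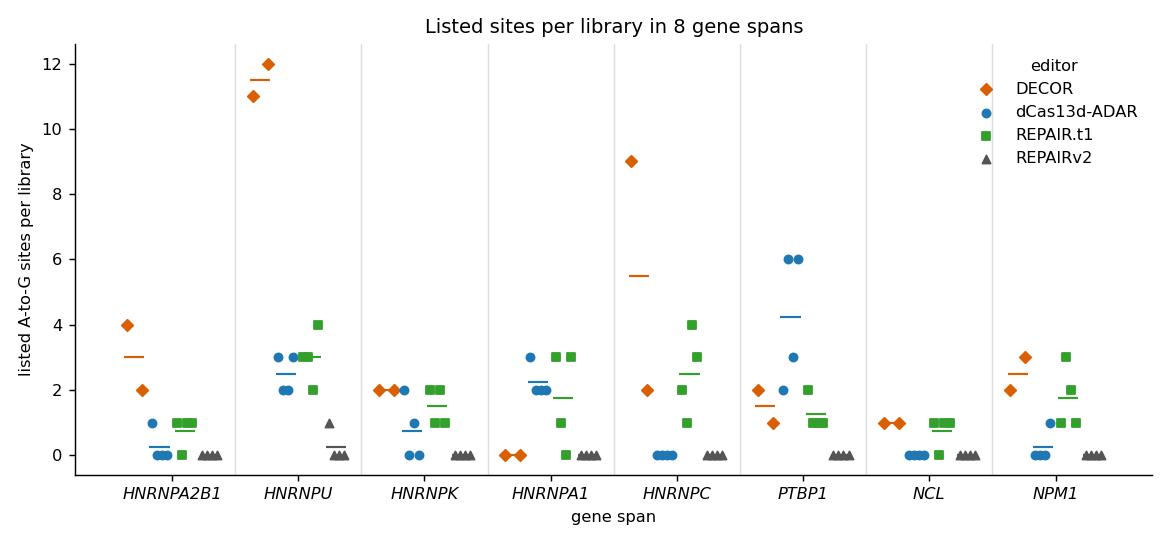
Number of listed A-to-G sites per library (vertical axis) in each of the 8 gene spans (horizontal axis). Each point is 1 library and each short line the mean of an editor's libraries (DECOR n = 2, the others n = 4); DECOR stands highest in HNRNPU at 11 and 12 sites, dCas13d-ADAR in PTBP1 at 2 to 6.

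Median editing levels over all member sites were below those of the same lists. Within the 8 genes the median level was 0.167 in each of the DECOR libraries, 0.167 to 0.205 in dCas13d-ADAR libraries and 0.152 to 0.173 in REPAIR.t1 libraries. Over the whole lists the medians were 0.211 and 0.208 for DECOR, 0.263 to 0.269 for dCas13d-ADAR and 0.25 to 0.263 for REPAIR.t1. The gene median was the lower value in all 10 libraries of these editors, which was not tested. Among sites listed in every library of an editor the picture was mixed. The median of their mean levels was 0.210 for the 12 member sites of DECOR and 0.214 for all 2067 such sites. It was 0.215 for 4 member sites and 0.317 for all 1665 in dCas13d-ADAR, and 0.307 for 2 member sites and 0.292 for all 1053 in REPAIR.t1.

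DECOR and the other 3 editors had no member position in common. Of the 76 sites, DECOR listed 42, dCas13d-ADAR 21, REPAIR.t1 25 and REPAIRv2 1. Not 1 of the 42 DECOR sites was in a list of another editor, where the share over all DECOR sites was 3.75%, a share at which 42 sites would hold few. Of the sites of dCas13d-ADAR, 12 of 21 (57.1%) were also listed by REPAIR.t1, against 47.0% over all its sites. The same 12 were 48.0% of the 25 REPAIR.t1 sites, against 54.5% over all its sites. Both shares lie near those of the whole lists. Sites seen in 1 library made up 42 of the 76 (55.3%), against 58.3% of all sites of the series. Among DECOR sites 12 of 42 were in both libraries (28.6%, against 22.2% over all DECOR sites). All 4 libraries of dCas13d-ADAR listed 4 of its 21 sites (19.05%, against 13.5%), and all 4 libraries of REPAIR.t1 listed 2 of its 25 sites (8.0%, against 9.89%).

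**Figure D2:**
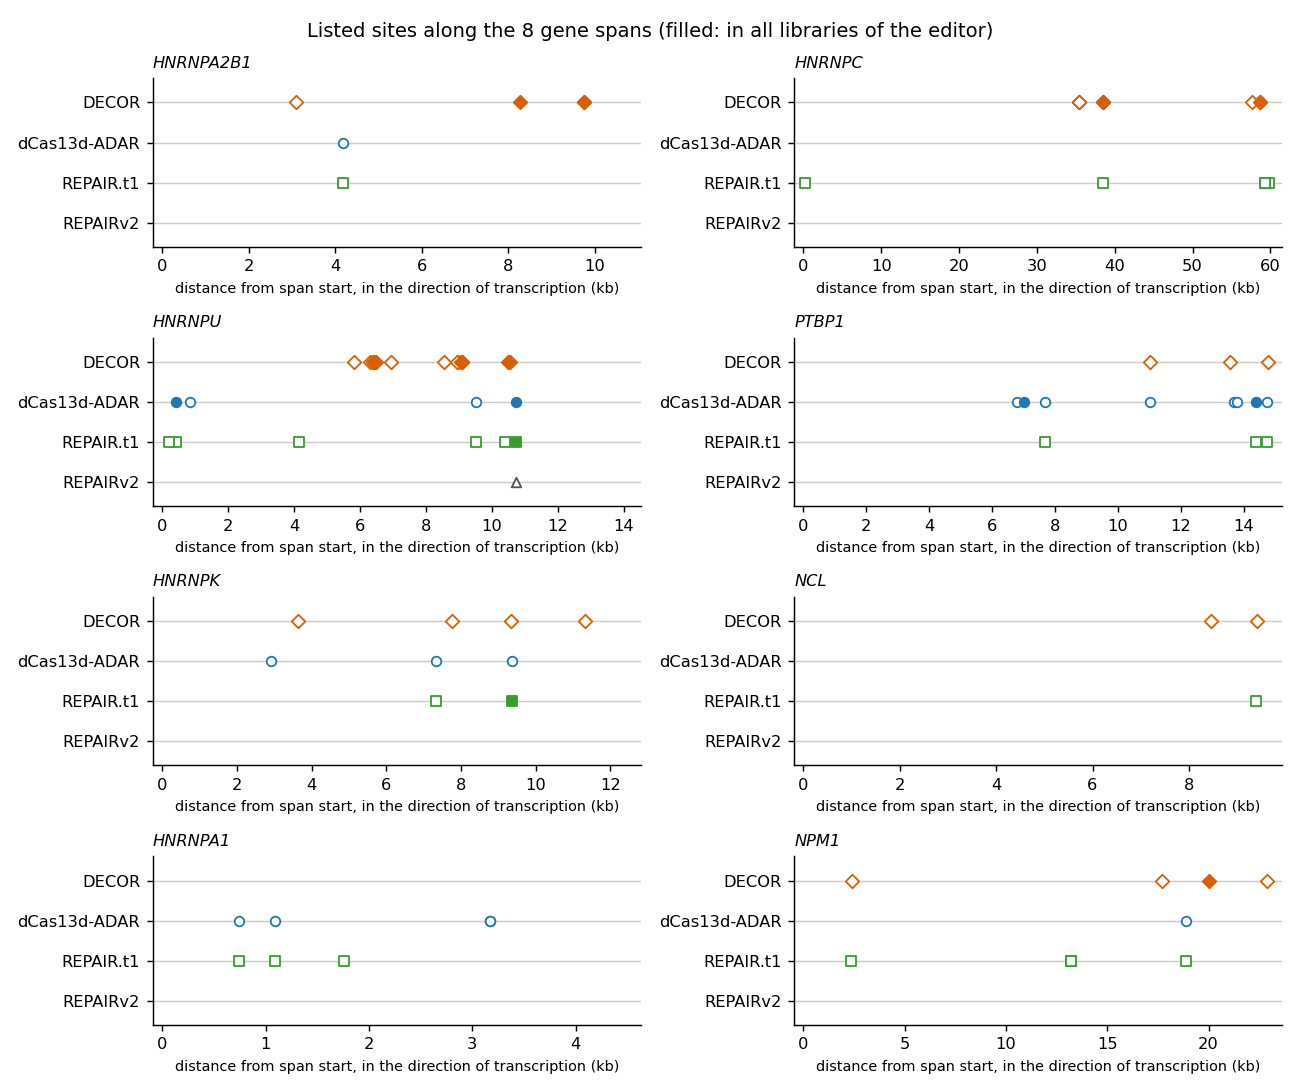
Listed sites of each editor (rows) along the 8 gene spans, with distance from the span start in kilobases on the horizontal axis. Filled symbols were listed in all libraries of the editor and open symbols in fewer; no DECOR symbol shares a position with another editor, and HNRNPU holds 16 of the 42 DECOR sites.

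HNRNPU encodes hnRNP U, also called scaffold attachment factor A, which binds RNA and chromatin. It held the highest single level of the 8 genes, in REPAIR.t1. Position 245017128 on chromosome 1, at 10716 bases from the span start, was the site listed in all 8 dCas13d-ADAR and REPAIR.t1 libraries. Its level was 0.5 and 0.441 in EZH2 and 0.571 and 0.452 in NT libraries of dCas13d-ADAR. In REPAIR.t1 it was 0.359 and 0.417 in EZH2_A22 and 0.282 and 0.619 in NT libraries. The ranges overlapped, since the highest and the lowest value both came from NT libraries of REPAIR.t1. Among sites listed in every library of the editor, it stood above 90.9% of 1665 in dCas13d-ADAR (0.491 ± 0.0594, SD, n = 4) and above 86.7% of 1053 in REPAIR.t1 (0.419 ± 0.144, n = 4). It was also the single REPAIRv2 site in the 8 genes, at 0.152 in EZH2_A22 replicate 1, and no DECOR library listed it.

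Near the start of HNRNPU, 414 bases into the span, position 245027430 was listed in all 4 dCas13d-ADAR libraries, at 0.156 and 0.167 with the EZH2 guide and 0.222 and 0.211 with the NT guide. REPAIR.t1 listed it in both EZH2_A22 libraries, at 0.143 and 0.133, and in neither NT library. All its dCas13d-ADAR levels lay above both REPAIR.t1 levels, but the share of all sites with such an order was not counted. With the EZH2 and EZH2_A22 libraries alone the site could be tested in limma and was not called (0 of 1101 sites called). A further site at position 245018338 was listed by dCas13d-ADAR NT replicate 2 (0.150) and by 3 REPAIR.t1 libraries (0.135 to 0.2). DECOR listed 16 other positions in the gene, between 5802 and 10555 bases from the span start, and 7 of them were in both libraries. Position 245018338 (9506 bases) and REPAIR.t1 position 245017447 (10397 bases) lay within the same stretch.

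The DECOR run with the most sites in the 8 genes, taking gaps of up to 100 bases, held 6 HNRNPU sites within 190 bases, from position 245021351 to position 245021540. Its highest site, position 245021351, had 0.410 and 0.356 in the DECOR libraries, above 93.2% of the 2067 sites in both DECOR lists. Position 245021400 had 0.229 and 0.300. The neighbouring positions 245021452 and 245021453 had 0.163 and 0.300, and 0.213 and 0.368. These adjacent bases were each higher in replicate 2, and position 245021351 was higher in replicate 1. A second run of 5 sites spanned 147 bases from position 245018743, with mean levels of 0.0889 to 0.183. Here positions 245018761 (0.154 and 0.173) and 245018778 (0.160 and 0.207) were in both libraries. Position 245017355 (0.2 and 0.194) lay 92 bases from the nearest site of another editor in this gene, a REPAIR.t1 site.

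**Figure D3:**
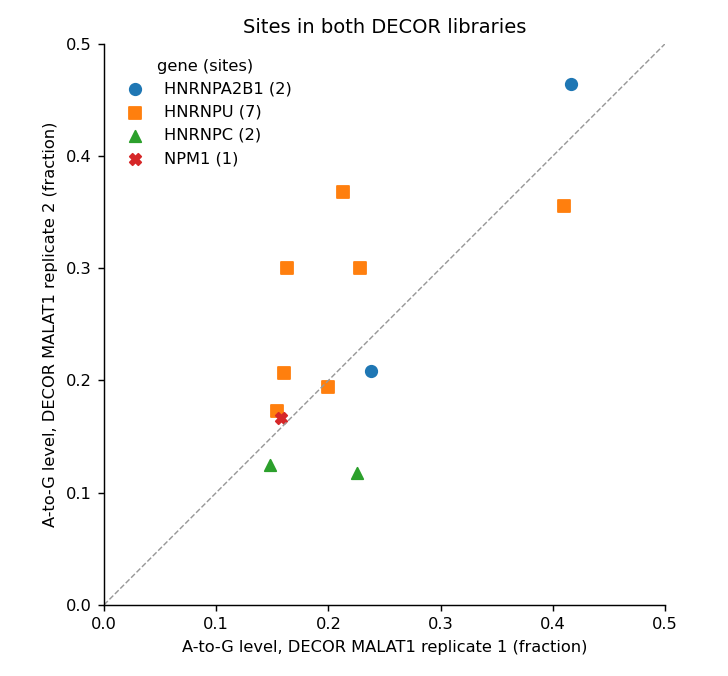
A-to-G level of the 12 sites listed in both DECOR libraries, replicate 1 on the horizontal and replicate 2 on the vertical axis, both as fractions; the dashed line marks equal levels. HNRNPU gives 7 of the 12 points, and the highest point, near 0.417 and 0.464, is in HNRNPA2B1.

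The share of closely spaced DECOR sites in these genes was near that of its whole list. A further DECOR site within 50 bases was found for 18 of its 42 sites (42.9%), against 37.1% over all DECOR sites. For dCas13d-ADAR this held for 2 of 21 sites (9.52%, against 33.4%), a pair 2 bases apart in HNRNPA1. For REPAIR.t1 it held for 4 of 25 (16.0%, against 28.7%), a pair 7 bases apart in HNRNPC and a pair of adjacent bases in NPM1. Members of a run share reads and are not independent.

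HNRNPA1 and HNRNPA2B1 encode closely related proteins with paired RNA recognition motifs that repress or shift splice sites. DECOR listed sites in HNRNPA2B1 and none in HNRNPA1. HNRNPA1 had 0 sites in either DECOR library, 3 and 2 in EZH2 and 2 and 2 in NT libraries of dCas13d-ADAR, and 3 and 1 in EZH2_A22 and 0 and 3 in NT libraries of REPAIR.t1. Position 54675230 on chromosome 12 had 0.179 and 0.147 in 2 dCas13d-ADAR libraries and 0.133 to 0.206 in 3 REPAIR.t1 libraries. Position 54675581 had 0.140 to 0.164 in 3 dCas13d-ADAR libraries and 0.152 and 0.227 in 2 REPAIR.t1 libraries. The levels of the 2 editors overlapped at both sites. Positions 54677657 and 54677659 were listed together, in EZH2 replicate 1 (0.244 and 0.171) and NT replicate 2 (0.241 and 0.140) of dCas13d-ADAR, and by no other editor.

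HNRNPA2B1, in contrast, had 4 and 2 sites in the DECOR libraries and at most 1 in any other library. Position 26232140 on chromosome 7 had 0.417 and 0.464 in the DECOR libraries, the highest DECOR mean in the 8 genes and above 96.9% of sites in both DECOR lists. Position 26230657 followed at 0.238 and 0.208. The one HNRNPA2B1 site listed by editors other than DECOR, position 26236237, was listed at 0.143 by dCas13d-ADAR EZH2 replicate 1 and at 0.117 to 0.143 by 3 REPAIR.t1 libraries, 1085 bases from the nearest DECOR site.

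HNRNPC encodes hnRNP C, which binds uridine-rich tracts of nascent RNA and keeps cryptic exons out of messages. DECOR and REPAIR.t1 listed its sites. DECOR libraries held 9 and 2, each dCas13d-ADAR library 0, and REPAIR.t1 libraries 2 and 1 with the EZH2_A22 guide and 4 and 3 with the NT guide. Position 21678341 on chromosome 14 was listed by 3 REPAIR.t1 libraries, at 0.190 in EZH2_A22 replicate 2 and 0.227 and 0.350 in the NT libraries. Position 21737479, 159 bases from the span start, was listed by 3 REPAIR.t1 libraries at 0.105 to 0.161. DECOR listed positions 21678931 (0.226 and 0.118) and 21699159 (0.148 and 0.125) in both libraries. The other 7 DECOR sites of this gene were all in replicate 1 alone, so the DECOR number rests largely on that library.

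PTBP1 encodes polypyrimidine tract-binding protein, a repressor of alternative exons, and was the gene with the most dCas13d-ADAR sites. DECOR libraries held 2 and 1, dCas13d-ADAR libraries 2 and 6 with the EZH2 guide and 3 and 6 with the NT guide, and REPAIR.t1 libraries 2 and 1 with the EZH2_A22 guide and 1 and 1 with the NT guide. Position 804404 on chromosome 19, at 7012 bases from the span start, was listed in all 4 dCas13d-ADAR libraries, at 0.273 and 0.194 in EZH2 and 0.297 and 0.2 in NT libraries, and in no REPAIR.t1 library. It was the single site of the 34 listed by dCas13d-ADAR or REPAIR.t1 in these genes with that pattern, where 1.04% of all sites of either editor had it. The reverse pattern, all 4 REPAIR.t1 and no dCas13d-ADAR library, was met by 0 of the 34, against 0.459% of all. Both counts are near those shares. Position 811785 had 0.161 and 0.194 in EZH2 and 0.170 and 0.163 in NT libraries of dCas13d-ADAR, and 0.167 and 0.170 in 2 REPAIR.t1 libraries, so the levels overlapped. Position 812151 was listed by 3 dCas13d-ADAR libraries (0.111 to 0.194) and 2 REPAIR.t1 libraries (0.114 and 0.133).

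HNRNPK encodes a protein with KH domains that binds cytosine-rich RNA and DNA. DECOR listed 2 sites in each library, 4 different positions in all at 0.148 to 0.205. Position 86586194 on chromosome 9 was listed by all 4 REPAIR.t1 libraries, at 0.214 and 0.194 in EZH2_A22 and 0.160 and 0.214 in NT libraries, and by 1 dCas13d-ADAR library, NT replicate 1, at 0.150. That single dCas13d-ADAR level was below all 4 REPAIR.t1 levels, the lowest of which was 0.160, and this was not tested. Position 86588249 was listed at 0.179 by dCas13d-ADAR EZH2 replicate 1 and at 0.188 and 0.226 by 2 REPAIR.t1 libraries.

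**Figure D4:**
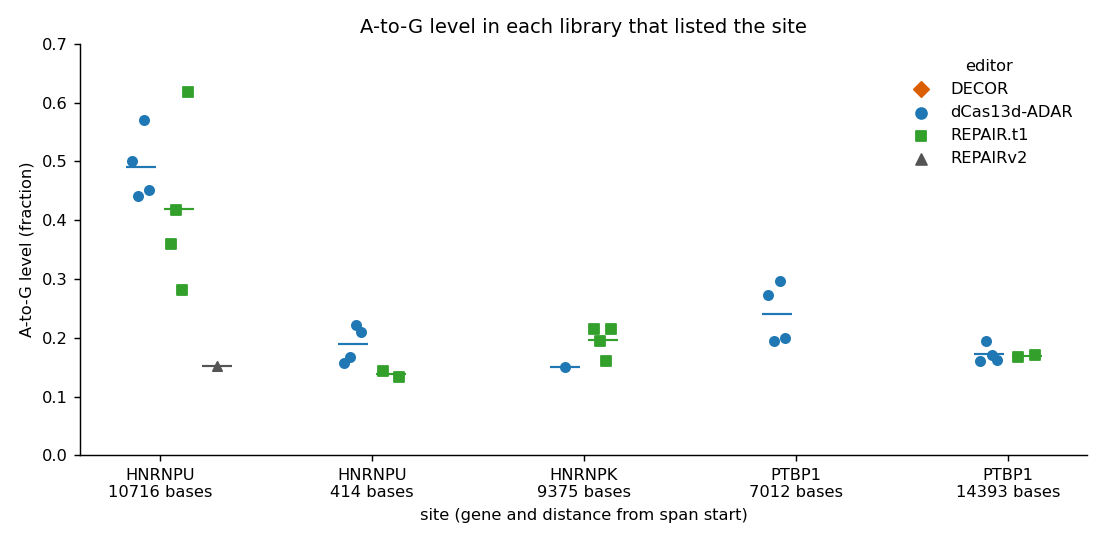
A-to-G level (fraction, vertical axis) in each library that listed the 5 sites found in all 4 libraries of dCas13d-ADAR or of REPAIR.t1, named by gene and distance from the span start. Points are libraries and short lines their mean; the HNRNPU site at 10716 bases lies at 0.282 to 0.619 for these 2 editors, and the other 4 sites at 0.133 to 0.297, and no DECOR library listed any of them.

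The nucleolar pair gave few sites. NCL, whose protein nucleolin aids ribosomal RNA synthesis and processing, had 1 site in each DECOR library, 0 in every dCas13d-ADAR library and 1 and 0 in EZH2_A22 and 1 and 1 in NT libraries of REPAIR.t1. Position 232319797 on chromosome 2 was listed at 0.123 by DECOR replicate 2. Just 7 bases away, position 232319804 was listed by 3 REPAIR.t1 libraries at 0.162 to 0.173. This was the shortest distance between a DECOR site and a site of another editor in the 8 genes.

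NPM1, whose protein nucleophosmin is a histone and ribosome chaperone, had 2 and 3 sites in the DECOR libraries, 1 in dCas13d-ADAR NT replicate 2 and 0 in the other 3 dCas13d-ADAR libraries, and 1 to 3 in the REPAIR.t1 libraries. Position 170834744 on chromosome 5 had 0.158 and 0.167 in the DECOR libraries. Position 170833593 was listed by 3 REPAIR.t1 libraries at 0.125 to 0.171 and by dCas13d-ADAR NT replicate 2 at 0.152, inside the REPAIR.t1 range.

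Site numbers per gene were compared between editors in limma 3.58.1, on log2(sites + 1), over the gene spans together with all 20-kb windows of the genome that held at least 1 site per library on average. HNRNPC was the gene called between dCas13d-ADAR and REPAIR.t1. It had 0 ± 0 sites in dCas13d-ADAR and 2.5 ± 1.29 in REPAIR.t1 (SD, n = 4 each), a log2 difference of -1.73 (SE 0.24, limma adjusted p = 0.0173), where the median over all 1683 regions was 0.29. It reached the minimum through REPAIR.t1 alone, and the size of the difference depends on the added 1 because dCas13d-ADAR was at 0. The call covers 1 of the 6 genes that reached the minimum, against 12.5% of all regions. Here and below such shares set genes beside regions of unlike size. The spans run from 4543 bases in HNRNPA1 to 60343 in HNRNPC, and the windows are 20 kb. With any 1 of the 8 libraries left out, 70 to 112 regions were called, against 210 with all. PTBP1 leaned the other way, with 4.25 ± 2.06 sites in dCas13d-ADAR and 1.25 ± 0.5 in REPAIR.t1, a log2 difference of 1.15 (SE 0.34) that did not pass (limma adjusted p = 0.0799). NPM1 had a log2 difference of -1.15 (SE 0.35) and did not pass either (limma adjusted p = 0.0844). NPM1 (means of 0.25 in dCas13d-ADAR and 1.75 in REPAIR.t1) and HNRNPK (0.75 and 1.5) also reached the minimum through REPAIR.t1. HNRNPU, HNRNPK and HNRNPA1 had limma adjusted p of 0.590, 0.335 and 0.565, and HNRNPA2B1 and NCL were too thin to be tested.

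Between DECOR and dCas13d-ADAR, HNRNPU, HNRNPA2B1, HNRNPC and NPM1 were called higher and HNRNPA1 lower in DECOR. HNRNPU had 11.5 ± 0.707 sites in DECOR (n = 2) and 2.5 ± 0.577 in dCas13d-ADAR (n = 4), a log2 difference of 1.85 (SE 0.20, limma adjusted p = 0.00449), and HNRNPA1 had 0 ± 0 and 2.25 ± 0.5, a log2 difference of -1.69 (SE 0.19, limma adjusted p = 0.00449). HNRNPC gave 2.45 (SE 0.48, limma adjusted p = 0.0197), HNRNPA2B1 1.70 (SE 0.40, limma adjusted p = 0.0339) and NPM1 1.54 (SE 0.37, limma adjusted p = 0.0339). PTBP1 and HNRNPK did not pass (limma adjusted p = 0.152 and 0.223). Over all 1756 regions the median was -0.29 and 29.2% were called. HNRNPA1, HNRNPA2B1, HNRNPC, HNRNPK and NPM1 reached the minimum through the editor with more sites, so the 5 calls among 7 tested genes say nothing about the set. With any 1 library left out, 222 to 406 regions were called, against 513 with all. With 1 library left out, HNRNPU and HNRNPA1 were called in all 6 fits. HNRNPA2B1 was lost without DECOR replicate 2 (limma adjusted p = 0.0803) and without dCas13d-ADAR EZH2 replicate 2, NT replicate 1 or NT replicate 2 (limma adjusted p = 0.0817 to 0.0827). HNRNPC was lost without any 1 dCas13d-ADAR library (limma adjusted p = 0.0543 to 0.0559). NPM1 was lost without dCas13d-ADAR EZH2 replicate 1, EZH2 replicate 2 or NT replicate 1 (limma adjusted p = 0.0818 to 0.0827). HNRNPA2B1 and HNRNPC without DECOR replicate 1, and NPM1 without either DECOR library, no longer reached the minimum.

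Against REPAIR.t1, HNRNPU was the gene called for DECOR. It had 11.5 ± 0.707 sites in DECOR (n = 2) and 3.0 ± 0.816 in REPAIR.t1 (n = 4), a log2 difference of 1.67 (SE 0.23, limma adjusted p = 0.00929). The call was lost without DECOR replicate 1 (limma adjusted p = 0.0706) or replicate 2 (limma adjusted p = 0.0823). It was 1 of 7 genes tested, where 24.7% of 1592 regions were called (393, and 71 to 72 without DECOR replicate 1 or 2). HNRNPA2B1, which reached the minimum through DECOR, did not pass (log2 difference 1.203, SE 0.41, limma adjusted p = 0.0907). The other 5 genes had limma adjusted p of 0.206 to 0.747. Of these, HNRNPA1 (means of 0 in DECOR and 1.75 in REPAIR.t1) reached the minimum through REPAIR.t1. DECOR shares its 2 libraries between these comparisons.

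**Figure D5:**
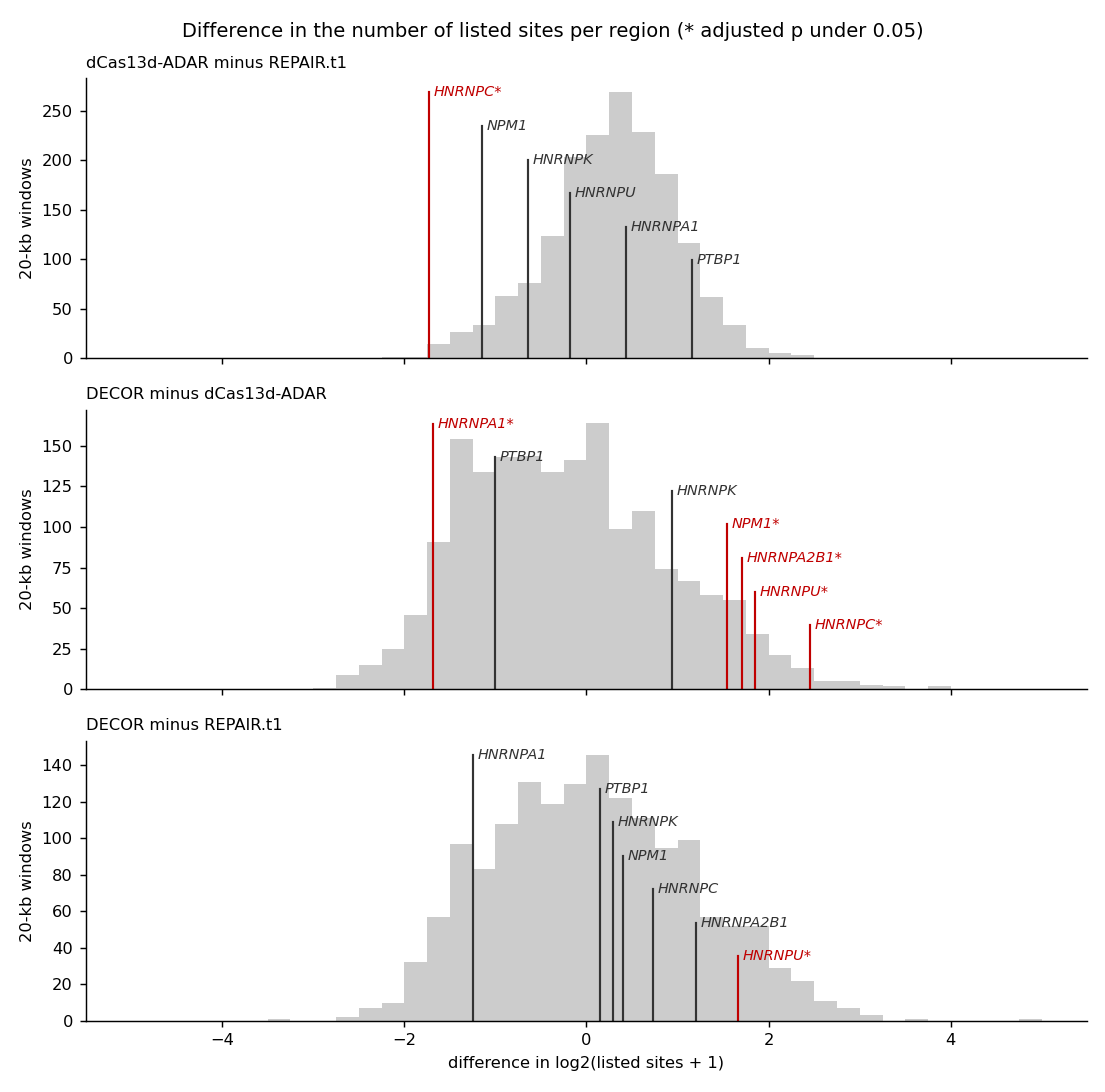
Difference in log2(listed sites + 1) per region (horizontal axis) for dCas13d-ADAR minus REPAIR.t1, DECOR minus dCas13d-ADAR and DECOR minus REPAIR.t1. Grey bars count 20-kb windows and labelled lines are the genes tested, red with an asterisk where the limma adjusted p was under 0.05; HNRNPC lies at -1.73 in the top panel and HNRNPU at 1.85 and 1.67 in the lower panels.

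Over all 8 libraries of dCas13d-ADAR and REPAIR.t1, levels at single sites could be tested between these editors for HNRNPU position 245017128 alone. Its log2 odds differed by 0.43 (SE 0.38, limma adjusted p = 0.494 over 609 sites listed in all 8 libraries, of which 7.22% were called), and the median difference over those sites was 0.34. It was not called under any of the other settings tried. With the EZH2 and EZH2_A22 libraries alone, HNRNPU position 245027430 could be tested as well, and limma called 0 of 1101 sites. Of the 25 sites in all DECOR and dCas13d-ADAR libraries, and of the 19 in all DECOR and REPAIR.t1 libraries, 0 lay in the 8 genes.

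No guide difference passed among the member genes and sites that could be tested. In limma, 0 of 1683 regions changed in site number between EZH2 and NT libraries of dCas13d-ADAR and REPAIR.t1 (0.0%, with 98 at an unadjusted p under 0.05). In levels, 0 of 1665 sites passed in dCas13d-ADAR (0.0%, 87 at an unadjusted p under 0.05) and 0 of 1053 in REPAIR.t1 (0.0%, 61 at an unadjusted p under 0.05). The tested sites included 2 each of HNRNPU and PTBP1 in dCas13d-ADAR, and 1 each of HNRNPU and HNRNPK in REPAIR.t1. HNRNPA2B1 and NCL were too thin for the test of site numbers. In HNRNPC the REPAIR.t1 libraries had 2 and 1 sites with EZH2_A22 and 4 and 3 with NT, and dCas13d-ADAR had 0 throughout. The order rests on 2 libraries per guide. Its share over all regions was not counted, and it was not tested in REPAIR.t1 alone. Over both editors the log2 difference of HNRNPC was -0.43 (SE 0.24, limma adjusted p = 0.853).

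Across the 7 group means of log2(sites + 1), HNRNPC and NCL had the most similar pattern among the 8 genes (Pearson r = 0.99), followed by HNRNPC and NPM1 (r = 0.91). HNRNPA2B1 and HNRNPA1 had the least similar (r = -0.12). NCL had at most 1 site in any library, and HNRNPC and NCL both had 0 in every dCas13d-ADAR and REPAIRv2 library. Their high r thus rests largely on shared zeros. List lengths differ by editor, and 2 of the 7 groups are the short REPAIRv2 lists, so these values describe only the pattern over the groups.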

How the data were processed

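The authors deposited 1 list of sites per library, with the A-to-G rate as a fraction, per the file headers. The submitters' processing notes name cutadapt, STAR 2.6.1b, hg19 and GRCh37, without roles; how sites were called and filtered, and whether genomic variants were removed, was not stated. The lowest level in any list was 0.0597. A site was a member if its position lay in 1 of 8 hg19 gene spans. Strand came from RefSeq promoters (GRCh38) for 7 genes and for HNRNPA1, which has no entry there, from general knowledge. The members, the named sites and the tests were chosen with earlier results of these data known. Named were sites in all 8 dCas13d-ADAR and REPAIR.t1 libraries, in REPAIRv2, in DECOR and another editor, the highest site per gene in both DECOR libraries, sites passing a fit, and sites in all libraries of dCas13d-ADAR or REPAIR.t1 and none of the other; all other positions were named after their values were seen.

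Levels were tested in limma 3.58.1 as log2 of (level + 0.01) over (1 - level + 0.01), over all sites listed in every library compared. Site numbers were tested in limma with a trend on log2(sites + 1), over the 8 spans and all 20-kb windows with a mean of at least 1 site. The guide was a covariate between dCas13d-ADAR and REPAIR.t1, and the editor between guides. A further fit let the guide difference vary between these editors. The threshold was an adjusted p (Benjamini-Hochberg over all features) of 0.05. A fit needed 20 sites, so levels of DECOR and REPAIR.t1 (19 sites) were not fitted. Both tests were tried on simulated data. Alternatives are given in the closing section. Python 3.11.15, numpy 2.4.6, pandas 2.3.3, matplotlib 3.10.9 and R 4.3.3 were used.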

Additional observations from a re-analysis of the deposited data

How the results depend on the processing

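Site lists without coverage limit every number here, and a threshold on the level removes many member sites. At a level of at least 0.2 the mean number per library in the 8 genes was 9.5 for DECOR, 3.5 for dCas13d-ADAR and 4.25 for REPAIR.t1. Over sites of any level in both libraries of a group, the mean was 12, 5 and 6. With 1 library left out the mean was 23 to 31 for DECOR, 9.67 to 11 for dCas13d-ADAR, 12.7 to 14.3 for REPAIR.t1 and 0 to 0.333 for REPAIRv2. At a level of at least 0.2, 0 member sites were in all dCas13d-ADAR and no REPAIR.t1 library; with 1 library left out it was 1 in each case, and 0 to 2 sites were in all REPAIR.t1 and no dCas13d-ADAR library.

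Regions called between dCas13d-ADAR and REPAIR.t1 numbered 126 with sites per 1000 listed and 119 at a level of at least 0.2, against 210 in the report, and 70 to 112 with 1 library left out. HNRNPC was called in the 4 other settings where it could be tested and in the 7 fits with 1 library left out where it reached the minimum. It did not reach the minimum at a level of at least 0.2 or without REPAIR.t1 NT replicate 1. With a minimum mean of 3 sites, 0 of the 8 genes reached it. For DECOR against dCas13d-ADAR 209 regions were called with a minimum mean of 3 sites and 222 to 406 with 1 library left out, and for DECOR against REPAIR.t1 133 and 71 to 287. In the comparison of DECOR with REPAIR.t1, no alternative changed a call except leaving out a DECOR library, but the log2 difference of HNRNPC (0.73) turned to -0.35 at a level of at least 0.2 and ran from -0.14 without DECOR replicate 1 to 1.60 without replicate 2, and that of PTBP1 (0.15) turned to -0.012 with sites per 1000 listed and ran from -0.15 to 0.44 without DECOR replicate 1 or 2; neither gene was called. The cause was not tested. Between DECOR and dCas13d-ADAR, NPM1 did not reach the minimum at a level of at least 0.1. At a level of at least 0.2, or with a minimum mean of 3 sites, HNRNPU kept its call and PTBP1 was again not called. The other genes were then too thin to be tested. Sites called in level between dCas13d-ADAR and REPAIR.t1 numbered 2 with NT and 0 with EZH2 libraries alone in limma (168 and 114 at an unadjusted p under 0.05), and 10 to 42 with 1 library left out; between DECOR and dCas13d-ADAR 7 to 14. Guide comparisons stayed at 0 in every fit.

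Libraries with the same replicate number did not deviate together (correlations of -0.01 to 0.06 over 609 sites between groups of dCas13d-ADAR and REPAIR.t1). With the replicate block, 44 sites passed in level between these editors, and 148, 454 and 321 regions in the 3 comparisons of editors in the order of the report; no call among the 8 genes changed. Levels of DECOR against REPAIR.t1 could be fitted with sites missing from at most 1 library (10 of 52 called) and with 1 library left out (5 to 9 of 20 to 33 called), and 0 of these sites lay in the 8 genes; the other planned settings were not run, having 19 sites or fewer.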
